A study of Homo sapiens with 18 samples.

Results

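The genes described here carry glucose through glycolysis, export lactate and pass pyruvate into the mitochondrion. They were 32 genes chosen by symbol, for their place in these pathways, from the 23710 genes of the count tables, and each was followed in A253, SCC25 and CAL27, established lines of human head and neck squamous cell carcinoma (HNSCC) in which EHF, an ETS-family transcription factor of epithelia, was changed. In A253, 3 libraries came from cells that overexpressed EHF under doxycycline and 3 from control cells in regular medium. In SCC25, 2 libraries came from cells that overexpressed EHF under doxycycline and 2 from control cells in regular medium. In CAL27, 4 libraries came from EHF knockdown cells, 2 for each of the hairpins named sh 65 and sh 64 in the count table. A further 2 came from control cells, which the count table names sh Control. The labels give doxycycline for the overexpression cells alone, so in A253 and SCC25 the effects of the drug and of EHF cannot be told apart. The hairpin names follow the count table; the deposited TPM table gives sh 65 and sh 64 the other way round, so which hairpin a result belongs to is known only by that naming. ChIP sequencing of EHF in CAL27, with its input, was not analysed here.

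Glycolysis splits glucose into pyruvate in the cytosol. Hexokinase, phosphofructokinase and pyruvate kinase catalyse the steps that are nearly irreversible, and the enzymes between them work close to equilibrium. Pyruvate is then either reduced to lactate by lactate dehydrogenase and leaves the cell through monocarboxylate transporters, or is oxidised by the pyruvate dehydrogenase complex, which pyruvate dehydrogenase kinases switch off and a phosphatase switches on. Squamous tumours are known for high glucose uptake and for releasing lactate even where oxygen is present.

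Total counts per library lay between 7068155 and 19962159. Levels within a line are in CPM, a gene's counts relative to the scaled library size. EHF itself reached 765, 711 and 633 CPM in A253 overexpression libraries, against 84.5, 91.4 and 83.2 CPM in control libraries. It was at 860 and 892 CPM in SCC25 overexpression libraries, against 461 and 420.05 CPM in control libraries, and at 444 and 469 CPM with sh 65 and 497 and 526 CPM with sh 64, against 962 and 992 CPM in CAL27 control libraries. The change in EHF was therefore 3.02 on the log2 scale in A253, 0.99 in SCC25 and -1.02 in CAL27. All 6 squamous epithelial markers averaged at least 1 CPM in each line, and 17 markers of other cell types summed to between 6.83 and 8.83 CPM in A253, 90.3 and 115 CPM in SCC25 and 16.8 and 28.3 CPM in CAL27. Of the markers of salivary acinar cells, the amylase gene AMY1A was at 0 in the 3 lines. The others, AQP5 and PRB1, were at 0 in A253 and SCC25 but had counts in CAL27. The labels do not say that replicates were separate cultures, so p-values measure the spread between these samples only.

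Promoters of 3 members that changed, with different directions, are shown because EHF binds DNA of the ETS type, built on a GGAA core. PKM was higher with EHF overexpression in both lines, FBP1 had the largest change of any member in SCC25, and ENO1 fell in SCC25. Each sequence is RefSeq's for GRCh38.p14, runs from 250 bases before the gene's start to 50 after it, and reads 5′ to 3′ on the gene's own strand. Capitals mark every match, on either strand, to the letters CCGGAA or AGGAAG.
PKM (chr15:72231141-72231440, minus strand): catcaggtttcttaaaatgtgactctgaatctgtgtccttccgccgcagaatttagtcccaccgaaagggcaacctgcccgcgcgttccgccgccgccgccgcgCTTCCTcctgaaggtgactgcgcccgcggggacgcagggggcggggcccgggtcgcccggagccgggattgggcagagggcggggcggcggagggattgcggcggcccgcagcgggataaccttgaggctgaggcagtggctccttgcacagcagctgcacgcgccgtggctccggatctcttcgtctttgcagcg
FBP1 (chr9:94639469-94639768, minus strand): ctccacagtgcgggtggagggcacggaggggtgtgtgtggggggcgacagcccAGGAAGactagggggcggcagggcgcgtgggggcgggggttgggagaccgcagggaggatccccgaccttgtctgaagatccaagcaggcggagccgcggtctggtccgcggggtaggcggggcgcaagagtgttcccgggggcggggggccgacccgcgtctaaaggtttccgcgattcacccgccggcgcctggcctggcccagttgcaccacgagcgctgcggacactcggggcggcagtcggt
ENO1 (chr1:8878637-8878936, minus strand): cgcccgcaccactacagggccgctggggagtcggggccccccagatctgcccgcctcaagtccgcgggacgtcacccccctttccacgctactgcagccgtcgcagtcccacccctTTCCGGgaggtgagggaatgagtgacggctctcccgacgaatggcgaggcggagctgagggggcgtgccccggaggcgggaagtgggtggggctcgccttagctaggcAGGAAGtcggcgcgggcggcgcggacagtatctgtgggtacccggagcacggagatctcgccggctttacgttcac
CCGGAA was found on either strand in the promoters of 5 of the 28 members with a RefSeq entry (GPI, PFKM, PFKP, ENO1 and LDHA), and in 17.2% of all 35116 promoters. AGGAAG was found in 8 of 28 (PFKP, PGAM1, ENO1, PKM, PFKFB3, FBP1, PDK2 and PDHA1) and in 33.6% of all promoters; the letters before GG differ, so these motifs share a core but do not match the same site. The core of hypoxia response elements, ACGTG, was in 11 of 28 and in 21.4% of all promoters, and the E-box CACGTG, which contains ACGTG, in 4 of 28 and in 7.26% of all promoters. SLC2A3, SLC16A1, PFKFB2 and PDP1 had no entry. These matches describe the letters of the window and not binding.

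In control cells GAPDH and ENO1 of the pay-off phase of glycolysis were among the highest members in each line, while ENO2 of the same phase was among the lowest. On a scale per gene length (TPM, the usual per-length unit), GAPDH, the glyceraldehyde phosphate dehydrogenase, was the highest member in each line, at 4515 ± 80.2 TPM in A253 (SD, n = 3), 3896 ± 123 TPM in SCC25 and 7672 ± 162 TPM in CAL27 (SD, n = 2 each). ENO1, the main enolase, ranked the third of the members in A253 and the second in SCC25 and CAL27. PGK1, phosphoglycerate kinase, was at 2675 ± 68.1 TPM in A253 and ranked the second there, but at 458 ± 0.294 TPM in SCC25 and 799 ± 11.3 TPM in CAL27. SLC2A1, the ubiquitous glucose transporter, was likewise highest in A253, at 580.1 ± 27.6 TPM, against 98.6 ± 5.06 TPM in CAL27 and 68.7 ± 5.07 TPM in SCC25. Cell line, table and sequencing run cannot be told apart in levels set across lines.

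Regulators and minor isozymes formed the low end of the list. FBP1, the fructose bisphosphatase that runs the phosphofructokinase step backwards, was at 12.8 ± 2.03 TPM in SCC25 controls, 1.09 ± 0.184 TPM in A253 controls and 0.365 ± 0.00980 TPM in CAL27 controls. It was the lowest member in A253 and CAL27, and SLC2A3, a glucose transporter of high affinity best known from neurons, was the lowest in SCC25 at 0.431 ± 0.124 TPM. PDP1, a phosphatase that switches pyruvate dehydrogenase on, was higher in CAL27, at 196 ± 7.50 TPM, than in SCC25 at 84.1 ± 4.73 TPM and A253 at 66.4 ± 1.45 TPM. The pyruvate dehydrogenase kinases PDK2 and PDK3 lay between 4.13 ± 0.452 TPM (PDK3 in SCC25) and 15.6 ± 3.12 TPM (PDK3 in A253) in controls.

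**Figure D1:**
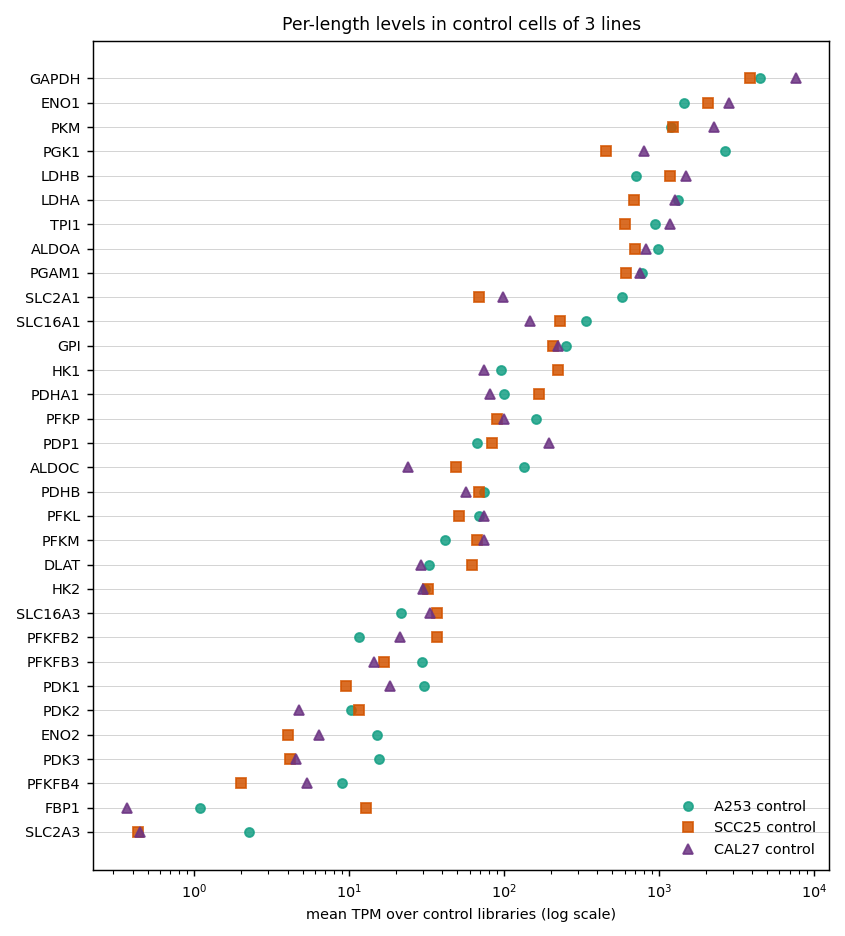
Mean TPM of each of the 32 genes over the control libraries of A253 (n = 3, circles), SCC25 (n = 2, squares) and CAL27 (n = 2, triangles), on a log axis, ordered by the mean over lines. GAPDH is at the top in each line, while PGK1 and SLC2A1 stand apart in A253 and FBP1 in SCC25.

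With EHF overexpression in A253, pyruvate kinase was the member that changed most clearly. PKM, whose enzyme makes pyruvate and ATP in the last step of glycolysis, was at 3344, 3461 and 3560.2 CPM in overexpression libraries, against 1959, 1778 and 1926 CPM in control libraries. The groups did not overlap and were separated by more than their whole spread. The difference was 1.83-fold (log2 change 0.87, SE 0.067, adjusted p = 2.49e-07 by edgeR's quasi-likelihood test with Benjamini-Hochberg adjustment over all genes, as for every adjusted p below unless another tool is named). In bulk RNA, fewer cells carrying a transcript and less of it per cell cannot be told apart, here and in every comparison below. Gene symbols were counted without transcript resolution, so the splice forms of PKM are summed.

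Of the 32 members, 4 passed the threshold of adjusted p under 0.05 in A253, 2 higher and 2 lower, beside 7.97% of all 14503 genes tested. PGK1, an ATP-making enzyme of the pay-off phase, was the other that rose, with 3757, 3782 and 3987 CPM in overexpression libraries, against 3323, 3064 and 3269 CPM in control libraries (log2 change 0.26, SE 0.067, adjusted p = 0.0236). SLC16A1, the carrier of lactate and pyruvate found in most cells, fell to 680.2, 654 and 689 CPM in overexpression libraries, against 775, 755 and 817 CPM in control libraries (log2 change -0.21, SE 0.062, adjusted p = 0.0413). SLC2A3 fell to 2.63, 3.23 and 2.28 CPM in overexpression libraries, against 4.03, 4.33 and 4.96 CPM in control libraries (log2 change -0.67, SE 0.18, adjusted p = 0.0255), on 31 to 77 counts per library. None of these 3 genes had overlapping groups. The share of all genes without overlap was not counted in any comparison. The PKM call held in all 13 alternative analyses, whereas PGK1 lost it in 4, SLC16A1 in 5 and SLC2A3 in 10; leaving out control library 1 or overexpression library 3 left PKM as the sole call, and leaving out control library 2 left PKM and SLC16A1.

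No member of upper glycolysis, fructose bisphosphate control or pyruvate entry passed the threshold in A253. SLC2A1 was at 958, 906 and 887 CPM in overexpression libraries, against 1056, 1066 and 1046 CPM in control libraries, and missed the threshold (log2 change -0.20, SE 0.061, adjusted p = 0.0528) although the groups did not overlap. It was called lower in 7 of the 13 alternatives, among them DESeq2, RLE scaling and the fit without overexpression library 1. HK1, the constitutive hexokinase, had 169.8, 189 and 175 CPM in overexpression libraries, against 213, 206 and 192 CPM in control libraries (log2 change -0.20, adjusted p = 0.0765), also without overlap. LDHA, the lactate dehydrogenase subunit that favours lactate, had 1622, 1461 and 1413 CPM, against 1719, 1720.4 and 1606 CPM in control libraries (log2 change -0.17, adjusted p = 0.187), with the highest overexpression library above the lowest control. The median log2 change over the 32 members was -0.02, beside -0.00 over all genes tested. Counts of all members made up 2.19% to 2.23% of an overexpression library and 1.98% to 2.099% of a control library; without PKM the members summed to between 18288 and 19003 CPM in overexpression libraries and between 17976 and 19029 CPM in control libraries, so that these ranges overlapped.

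In SCC25, EHF overexpression went with lower levels of most enzymes of the glycolytic chain and with higher PKM, FBP1, SLC16A3 and PDP1. Of the 32 members, 19 passed the threshold, 15 lower and 4 higher, beside 23.9% of all 14120 genes tested. The median log2 change over the members was -0.18, beside 0.00 over all genes tested. The changes were small: the lower members fell by between 0.18 (HK1) and 0.39 (ENO1) on the log2 scale. Counts of all members made up 1.45% and 1.498% of the overexpression libraries, against 1.65% and 1.72% of the control libraries.

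**Figure D2:**
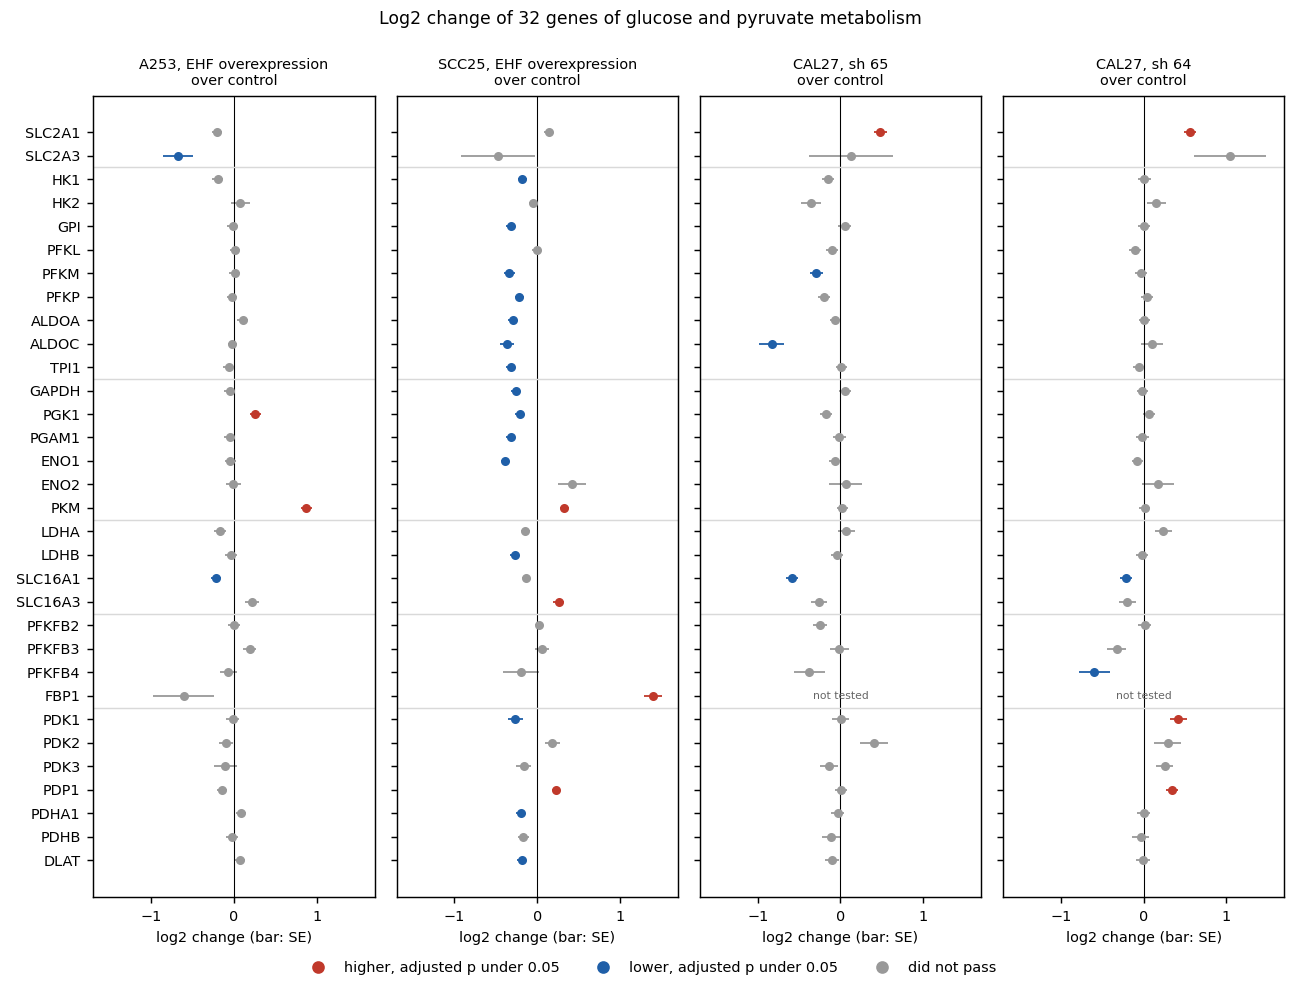
Log2 change of each of the 32 genes, over control, in A253 and SCC25 with EHF overexpression and in CAL27 with sh 65 and sh 64; points are estimates, bars 1 SE, and grey lines part glucose uptake, upper glycolysis, lower glycolysis, lactate, fructose bisphosphate control and pyruvate entry. In SCC25 15 genes are marked lower and 4 higher, while in A253 PKM at 0.87 is the highest and SLC2A3 at -0.67 and FBP1 at -0.60 are the lowest.

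In upper glycolysis, which spends ATP, 7 of 9 members fell in SCC25 and none rose. GPI, the phosphoglucose isomerase, was at 386 and 382 CPM in overexpression libraries, against 489 and 471 CPM in control libraries (log2 change -0.32, SE 0.050, adjusted p = 3.48e-05). PFKM, the muscle-type phosphofructokinase, was at 100.3 and 109.6 CPM, against 124 and 142 CPM in control libraries (log2 change -0.34), and PFKP, the platelet type, at 116 and 119.8 CPM, against 131 and 143 CPM (log2 change -0.21). Groups did not overlap for these 3 genes. PFKL, the liver type, had 86.6 and 91.0 CPM in overexpression libraries, against 88.3 and 90.5 CPM in control libraries, and its groups overlapped (log2 change -0.01, adjusted p = 0.946). The aldolases ALDOA and ALDOC fell by 0.29 and 0.36 on the log2 scale and triose phosphate isomerase, TPI1, by 0.32. HK1 fell by 0.18, and HK2, the inducible hexokinase, had a log2 change of -0.05 (adjusted p = 0.611).

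In lower glycolysis, which yields ATP, 4 of 6 members fell in SCC25 and 1 rose. ENO1 was at 2597 and 2719 CPM in overexpression libraries, against 3319 and 3644 CPM in control libraries, a fall by 23.7% (log2 change -0.39, SE 0.054, adjusted p = 6.47e-06). GAPDH was at 2677 and 2735 CPM, against 3079.6 and 3397 CPM in control libraries (log2 change -0.26, SE 0.053, adjusted p = 7.86e-04). PGAM1, phosphoglycerate mutase, was at 432 and 445 CPM, against 526 and 568 CPM in control libraries (log2 change -0.32), and PGK1 at 485 and 504 CPM, against 557 and 588 CPM (log2 change -0.21). In each of these 4 genes the overexpression libraries were below both controls. PKM went the other way, at 2544 and 2558 CPM in overexpression libraries, against 2008 and 2056 CPM in control libraries (log2 change 0.33, SE 0.050, adjusted p = 2.78e-05). ENO2, the neuronal enolase, had 6.23 and 7.05 CPM, against 4.76 and 5.27 CPM in control libraries, and missed the threshold (log2 change 0.42, SE 0.17, adjusted p = 0.0751). GAPDH, ENO1, PGK1, PGAM1, TPI1, ALDOA and LDHA have many processed pseudogenes, and how the authors' counting treated reads shared with them is not given in the sources used here.

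FBP1 was the member that rose most in SCC25. It was at 29.8 and 32.5 CPM in overexpression libraries, against 12.8 and 10.8 CPM in control libraries, on 160 to 489 counts per library. Both overexpression libraries were far above both controls, and the difference was 2.64-fold (log2 change 1.40, SE 0.10, adjusted p = 2.07e-10). The bifunctional kinase-phosphatases PFKFB2, PFKFB3 and PFKFB4, which set the fructose bisphosphate that activates phosphofructokinase and restrains FBP1, had log2 changes of 0.02, 0.06 and -0.20 and none passed. In A253, FBP1 was near the limit of detection, with 6, 9 and 14 counts in overexpression libraries, against 20, 14 and 11 counts in control libraries, and was not called (log2 change -0.60, SE 0.37, adjusted p = 0.422).

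Lactate and pyruvate genes moved in both directions in SCC25. LDHB, the subunit that favours lactate oxidation, fell to 811 and 798 CPM in overexpression libraries, against 925 and 1015 CPM in control libraries (log2 change -0.27, adjusted p = 7.48e-04). SLC16A3, the lactate exporter of highly glycolytic cells, rose to 53.2 and 59.0 CPM, against 46.0 and 48.3 CPM in control libraries (log2 change 0.26, adjusted p = 0.00703), while SLC16A1 had 508 and 496 CPM, against 540.2 and 561 CPM (log2 change -0.13, adjusted p = 0.0610). PDP1 rose to 233 and 219.5 CPM, against 196 and 191 CPM in control libraries (log2 change 0.23, adjusted p = 0.00147). These 4 genes had no overlap between the groups, SLC16A1 among them although it missed the threshold. PDK1, a hypoxia-induced pyruvate dehydrogenase kinase, fell by 0.26 on the log2 scale (adjusted p = 0.0465, a call lost in 6 of 9 alternatives, among them DESeq2 and each fit that leaves out 1 library), PDHA1, the catalytic alpha subunit of pyruvate dehydrogenase, by 0.20, and DLAT, the acetyltransferase core of the complex, by 0.19. PDHB, the beta subunit, missed the threshold (log2 change -0.17, adjusted p = 0.0719), as did LDHA (log2 change -0.14, adjusted p = 0.0578) and SLC2A1 (log2 change 0.14, adjusted p = 0.0557).

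The count in SCC25 leaned on few libraries. Without overexpression library 1, the shallowest of the 4, 10 members were called instead of 19, and HK1, PFKP, ALDOC, GAPDH, PGK1, PDK1, PDP1, PDHA1 and DLAT lost the call. Calls of 9 members (ALDOA, ENO1, FBP1, GPI, LDHB, PFKM, PGAM1, PKM and TPI1) held in all 9 alternatives.

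**Figure D3:**
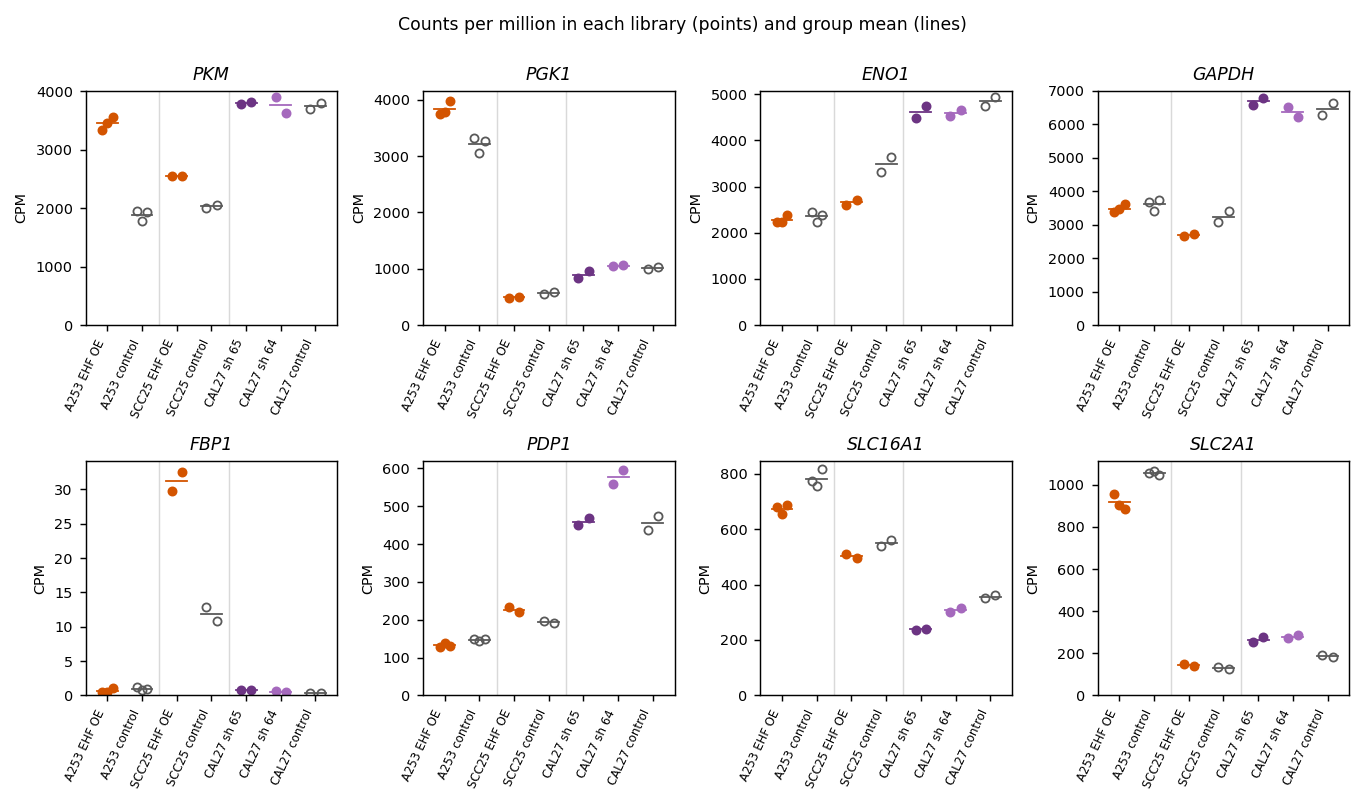
CPM of 8 genes in each library, 1 panel per gene with its own axis from 0; points are libraries (filled, EHF changed; open, control) and lines group means. PKM is higher with overexpression in A253 and SCC25, FBP1 is higher in SCC25, and in CAL27 SLC2A1 is higher and SLC16A1 lower with either hairpin.

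The overexpression effects in SCC25 and A253 differed for 10 of the 32 members by a test of the difference itself, beside 5.63% of all 15460 genes tested. Relative to A253, the effect in SCC25 was higher for FBP1 (difference of log2 changes 1.99, SE 0.36, adjusted p = 0.00231), PDP1 (0.36, adjusted p = 0.00946) and SLC2A1 (0.33, adjusted p = 0.0262). It was lower for PKM (-0.56, SE 0.086, adjusted p = 5.49e-04), PGK1 (-0.48, adjusted p = 0.00220), ALDOA (-0.42), ALDOC (-0.37), PFKM (-0.36), ENO1 (-0.36) and PDHA1 (-0.30). PKM was thus called higher in each line, with the smaller change in SCC25, whereas PGK1 was called lower in SCC25 and higher in A253. EHF changed less in SCC25 than in A253, from a higher control level, and the lines differ in other ways; the part of these in the difference was not tested. The calls of FBP1, PGK1 and PKM held in all 14 alternatives, and 3 of the 10 calls were left without SCC25 overexpression library 1 or without SCC25 control library 2, 5 without A253 overexpression library 3, and 6 without A253 control library 2 or SCC25 overexpression library 2. With another scaling of the libraries, RLE, 7 were called, 3 higher and 4 lower. PFKM, ALDOC and PDHA1 lost the call there and also with DESeq2.

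**Figure D4:**
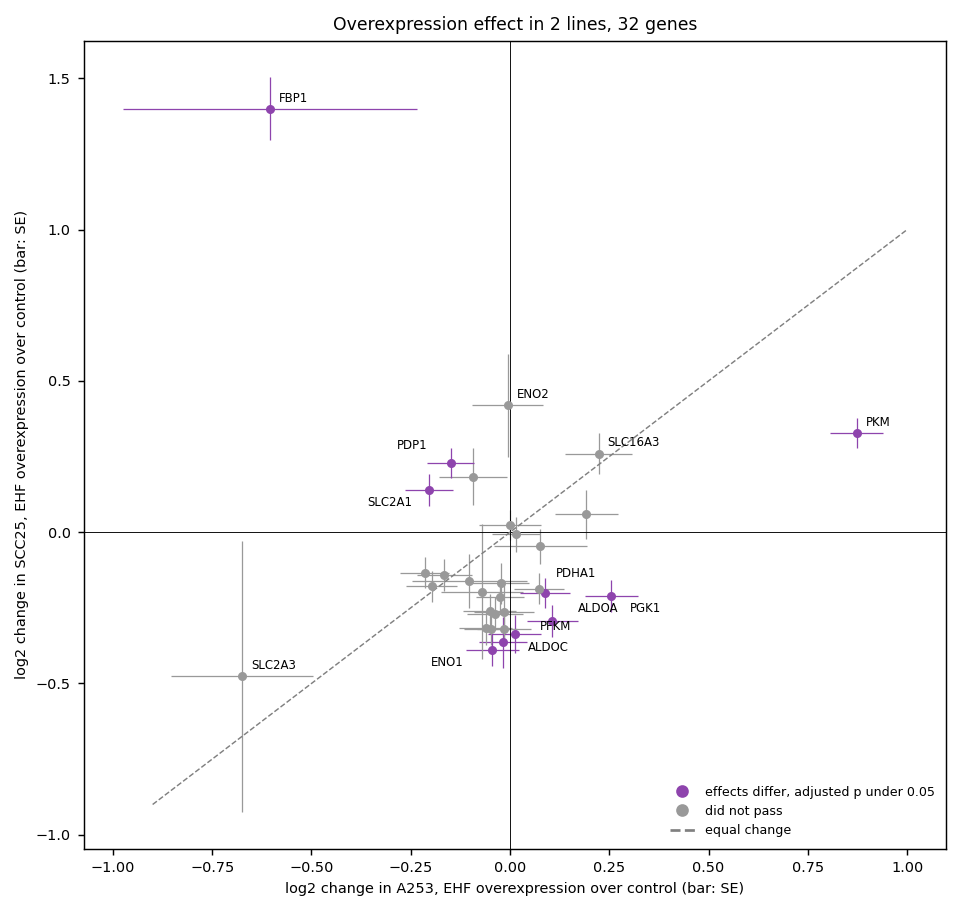
Log2 change with EHF overexpression in SCC25 (vertical) against that in A253 (horizontal) for 32 genes; bars are 1 SE, the dashed line marks equal changes, and purple points are the 10 genes whose effects differed at adjusted p under 0.05. In SCC25 23 of the 32 members lie below 0, and in A253 21 of 32, beside 49.6% and 50.9% of all genes tested.

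In CAL27, where EHF was knocked down, the glycolytic chain was close to its control level and the clearest changes were in transporters of the plasma membrane. Over the mean of both hairpins, 4 of 31 members tested passed the threshold, 1 higher and 3 lower, beside 18.8% of all 13629 genes tested. SLC2A1 rose to 252 and 275 CPM with sh 65 and 273 and 285 CPM with sh 64, against 193 and 184 CPM in control libraries (1.44-fold, log2 change 0.52, SE 0.066, adjusted p = 2.64e-05). SLC16A1 fell to 235 and 241 CPM with sh 65 and 299 and 315 CPM with sh 64, against 351 and 361 CPM in control libraries (log2 change -0.40, SE 0.060, adjusted p = 1.62e-04). For both genes all 4 knockdown libraries lay on the same side of both controls, and both calls held in all 13 alternatives. SLC16A3, the other lactate transporter, had 36.9 and 35.7 CPM with sh 65 and 36.2 and 39.9 CPM with sh 64, against 41.7 and 44.9 CPM in control libraries, and missed the threshold (log2 change -0.23, adjusted p = 0.0706).

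The other calls over both hairpins were PFKFB4 and ALDOC. PFKFB4, an activator of phosphofructokinase at low level here, had 7.80 and 6.78 CPM with sh 65 and 6.88 and 5.38 CPM with sh 64, against 10.4 and 8.89 CPM in control libraries (log2 change -0.49, SE 0.16, adjusted p = 0.0401). ALDOC, the brain-type aldolase, had 10.2 and 13.6 CPM with sh 65 and 23.3 and 21.5 CPM with sh 64, against 19.1 and 22.4 CPM in control libraries (log2 change -0.37, SE 0.12, adjusted p = 0.0442). Its sh 65 libraries were below both controls and its sh 64 libraries overlapped them. Each of these calls was lost in 7 of 13 alternatives, among them the fits without either control library, which left SLC2A1 and SLC16A1. No member of lower glycolysis passed: PKM had a log2 change of 0.02 (SE 0.060), GAPDH of 0.02 (SE 0.060) and ENO1 of -0.07 (SE 0.060). The median log2 change was -0.03 over the 31 members and 0.00 over all genes tested. FBP1 was left out by the filter on low counts, with 8 and 6 counts with sh 65 and 8 and 3 counts with sh 64, against 3 and 7 counts in control libraries.

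Each hairpin was also set against the controls, which the hairpins share. With sh 65, 4 of 31 members passed, beside 14.6% of all genes tested: SLC2A1 was higher, and SLC16A1, ALDOC and PFKM were lower. With sh 64, 5 of 31 passed, beside 15.7% of all genes tested: SLC2A1, PDK1 and PDP1 were higher, and SLC16A1 and PFKFB4 were lower. The sh 64 calls of SLC16A1 and PFKFB4 were lost with DESeq2, and that of SLC16A1 also without the filter on low counts. PDP1 had 558 and 596 CPM with sh 64, against 438 and 474 CPM in control libraries (log2 change 0.34, adjusted p = 0.00412). PDK1 had 55.8 and 62.4 CPM with sh 64, against 44.1 and 43.9 CPM in control libraries (log2 change 0.42, adjusted p = 0.00863). These groups did not overlap. Without control library 1 the sh 64 calls dropped to 1 member, SLC2A1, without control library 2 to 2 and without sh 64 library 1 to 3.

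A direct test of sh 65 minus sh 64 called 6 of 31 members, all lower with sh 65, beside 5.34% of all genes tested. ALDOC differed most (log2 difference -0.93, SE 0.16, adjusted p = 0.00123), followed by HK2 (-0.51, adjusted p = 0.0281), PDK1 (-0.42, adjusted p = 0.0240), PDK3 (-0.39, adjusted p = 0.0427), SLC16A1 (-0.37, adjusted p = 0.00462) and PDP1 (-0.33, adjusted p = 0.0110). HK2 had 86.5 and 85.7 CPM with sh 65 and 140.3 and 102 CPM with sh 64, against 113 and 108 CPM in control libraries. Its sh 65 libraries were below both controls and its sh 64 libraries lay on either side of them. PDK1 and PDK3 lost the call with DESeq2. EHF itself fell by 53.3% with sh 65 and by 47.7% with sh 64, and the hairpins did not differ in EHF past the threshold (log2 difference -0.16, adjusted p = 0.230). The ALDOC and SLC16A1 calls held in all 10 alternatives; leaving out sh 65 library 1, sh 64 library 1 or sh 64 library 2 left 3 of the 6 calls.

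Across the lines 23 of the 32 members were called in at least 1 of A253, SCC25 and CAL27 (mean of both hairpins) and none in all 3. By line, in that order, 7.97%, 23.9% and 18.8% of all genes tested were called. The share of all genes called in at least 1 line was not counted. HK2, PFKL, ENO2, LDHA, PFKFB2, PFKFB3, PDK2, PDK3 and PDHB were called in none of the 3 lines. SLC16A1 was called lower both with EHF overexpression in A253 and with EHF knockdown in CAL27, and ALDOC was called lower both with EHF overexpression in SCC25 and with EHF knockdown in CAL27. The SLC16A1 call in A253 was lost in 5 of the 6 fits that leave out 1 library. The ALDOC call in CAL27 was lost in 7 of 13 alternatives, with a log2 change of -0.83 with sh 65 and 0.10 with sh 64. For SLC2A1, the change was 0.52 with knockdown in CAL27, 0.14 with overexpression in SCC25 and -0.20 with overexpression in A253.

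The mix of isozymes within a family was read as each gene's share of the family's TPM in each library. Families held members of the list alone, so other isozymes are not in these shares. SLC16A3 made up 7.77% to 8.10% of the lactate transporter pair in A253 overexpression libraries, against 5.76% to 6.45% in control libraries (exact two-sided permutation test, p = 0.1, the smallest that 3 against 3 allows). In SCC25 it made up 16.4% and 18.3% in overexpression libraries, against 13.9% and 13.8% in control libraries. In CAL27 it made up 18.5% to 22.8% in knockdown libraries, against 18.3% to 18.9% in control libraries, with overlap (exact p = 0.2). The SLC16A3 share was thus above both or all controls in A253 and SCC25, where SLC16A3 had positive and SLC16A1 negative log2 changes.

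Among the pyruvate dehydrogenase kinases, PDK2 made up 52.1% and 53.5% in SCC25 overexpression libraries, against 45.5% and 45.6% in control libraries, and PDK1 31.7% and 32.8%, against 37.4% and 38.7%. With 2 libraries against 2 no permutation p goes below 0.3333. PFKL made up 27.9% and 28.0% of phosphofructokinase in SCC25 overexpression libraries, against 23.8% to 25.4% in control libraries. LDHA made up 63.0% ± 3.02 of lactate dehydrogenase in A253 overexpression libraries and 65.1% ± 2.30 in control libraries (SD, n = 3 each), with overlap; in SCC25 its share was 38.5% and 39.8% with overexpression, against 38.9% and 35.3% in controls. In CAL27 the LDHA share was 46.7% to 53.8% in 4 knockdown libraries, against 46.0% in both controls, without overlap (exact p = 0.267), and the PFKFB4 share 7.92% to 11.9%, against 12.5% to 13.4% (exact p = 0.133; the smallest possible is 0.0667). In every library HK1 was above HK2 and SLC2A1 above SLC2A3, and ENO1 made up at least 98.8% of ENO1 and ENO2 together.

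**Figure D5:**
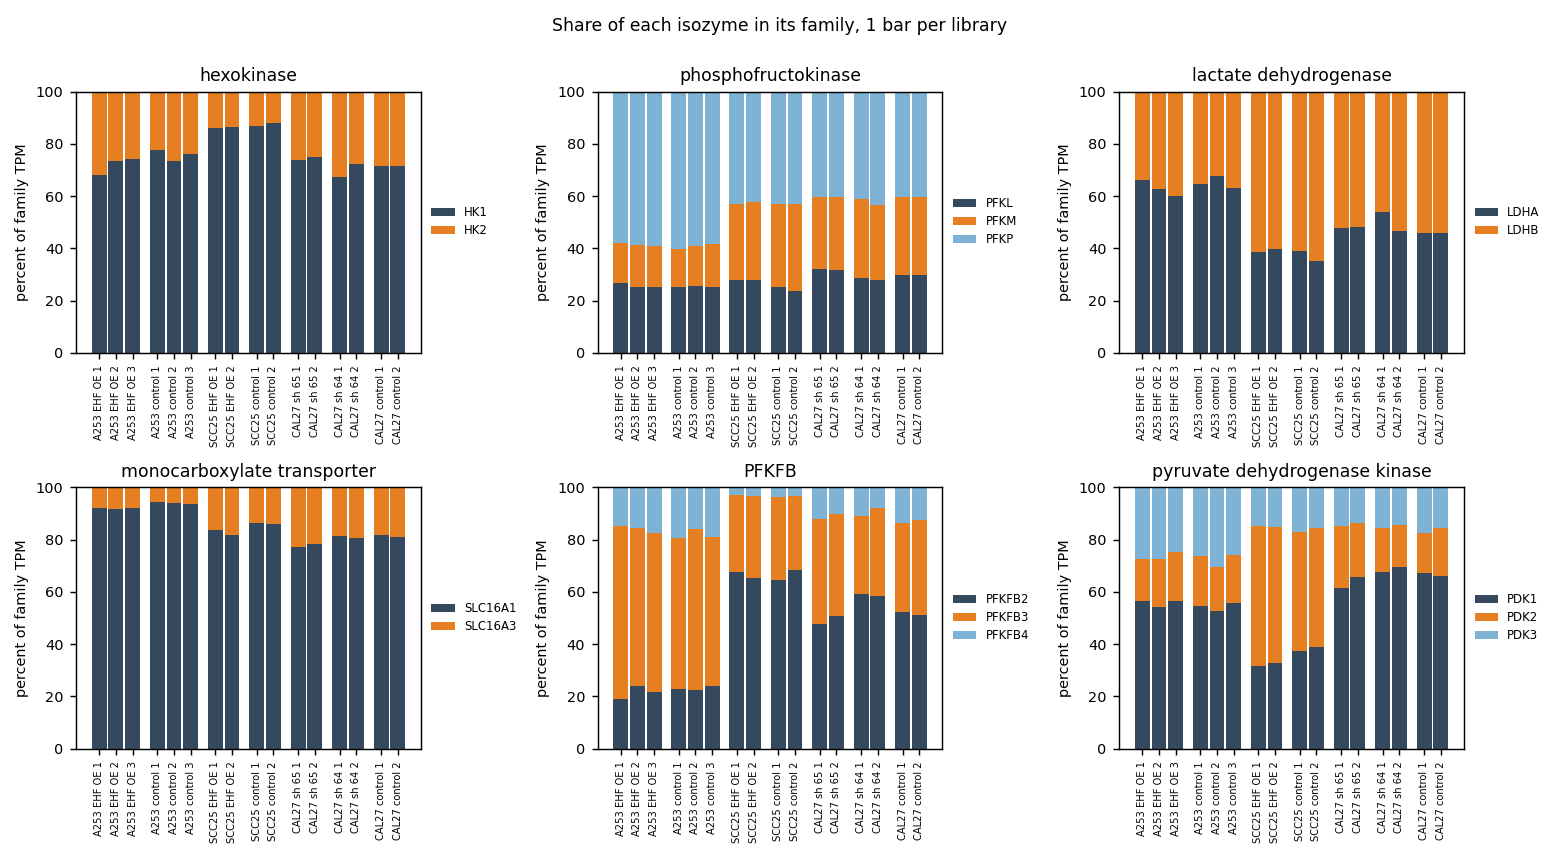
Share of each isozyme in the TPM of its family, in percent, for 6 families made up of members alone. Each bar is 1 library, with EHF-changed libraries left of the controls of their line. LDHA makes up more than LDHB in A253 and less in SCC25, and PDK2 is the major kinase in SCC25 alone of the 3 lines.

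Neighbouring pathways were read from lists that had been drawn up for the tissue and treatment with earlier results known. In SCC25, where 23.9% of all genes tested were called, 12 of 23 citrate cycle genes tested fell and none rose (median log2 change -0.16), among them IDH3G and IDH3B, subunits of the mitochondrial isocitrate dehydrogenase, by 0.29 and 0.26, and 5 of 11 pentose phosphate genes fell and none rose, led by transketolase, TKT, at -0.31. Branches into glycogen, hexosamine and serine had 2 genes higher and 8 lower of 20. GFPT1 and GFPT2, entry enzymes of the hexosamine pathway, went in opposite directions, at 0.37 and -0.28. PYGB, brain glycogen phosphorylase, was at -0.32. Of 32 other isozymes and partners 3 rose and 2 fell, with MPC2, a subunit of the mitochondrial pyruvate carrier, at 0.23 and the hexokinase-like HKDC1 at -0.66. Of 25 regulators 3 rose and none fell, among them TXNIP, which restrains glucose uptake, at 0.38 and the transcription factor KLF5 at 0.30. The shares called in these last 2 lists, 15.6% and 12%, were below that of all genes tested.

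In A253, beside 7.97% of all genes tested, the calls in the same lists were 1 of 23 citrate cycle genes, 2 of 11 pentose phosphate genes, 4 of 20 branch genes, 5 of 32 isozymes and partners and 3 of 27 regulators. PGD, an oxidative pentose phosphate enzyme, rose (log2 change 0.50, adjusted p = 6.86e-05). TXNIP (0.87), EGLN3, an oxygen-sensing prolyl hydroxylase (0.87), and MYC (0.51) rose, as did MPC2 (0.31) and PC, pyruvate carboxylase (0.32). TXNIP and MPC2 were thus called higher, and PYGB lower, with overexpression in both A253 and SCC25. TXNIP was also called higher with EHF knockdown in CAL27 (log2 change 0.72), a gene and comparison picked out after its values were seen.

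In CAL27, over both hairpins, PHGDH, the entry enzyme of serine synthesis from a glycolytic intermediate, rose 2.22-fold (log2 change 1.15, SE 0.095, adjusted p = 4.08e-07). PPARGC1A, a coactivator of mitochondrial genes, rose by 1.53 on the log2 scale, PCK2, mitochondrial phosphoenolpyruvate carboxykinase, by 0.78 and the cytosolic isocitrate dehydrogenase IDH1 by 0.57, while UAP1 of the hexosamine pathway fell by 0.62. By list, 6 of 23 citrate cycle genes (5 higher), 2 of 11 pentose phosphate genes (1 higher), 7 of 20 branch genes (4 higher), 8 of 30 isozymes and partners (2 higher) and 9 of 27 regulators (7 higher) were called, beside 18.8% of all genes tested, a share that the pentose phosphate list, at 18.2%, did not exceed.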

How the data were processed

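RNA sequencing of 16 libraries was used. Per the labels' protocols, RNA was extracted with Trizol and a column kit, enriched for mRNA and made into TruSeq libraries, and the submitters' processing notes name TopHat2 2.1.1, featureCounts 1.5.3, Bowtie 1.1.1, DESeq2 1.12.4 and the build hg19. The deposited count tables, made by the authors, hold raw counts for 23710 gene symbols, 1 table per line; strand handling and multimapping are not given in the sources used here. The deposited TPM tables of A253 and CAL27 hold TPM made by the authors from the same counts. The SCC25 table of that kind was not used, since its header is shifted by 1 cell, which leaves 4 columns of per-sample values unused. For CAL27 counts, 696 names were altered and were read by position from A253; the log2 gene lengths implied by counts and TPM matched those of A253 to within 0.01 in 18450 of 18450 genes. In CAL27, zeros of each sh 64 count column matched a TPM column named sh 65 in 100% of genes, and the reverse, so TPM alternatives were not run for single hairpins.

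Counts were tested with edgeR 4.0.16 (R 4.3.3; filterByExpr, TMM scaling, robust quasi-likelihood F test, two-sided, Benjamini-Hochberg over all genes tested in a table, threshold 0.05), 1 fit per line, with all CAL27 libraries in 1 fit and each hairpin its own group. Effects in SCC25 and A253 were compared by an interaction term. CPM used TMM-scaled library sizes, and TPM for all lines came from counts and the implied lengths. Alternatives were DESeq2 1.42.0, RLE scaling, no filter on low counts, a replicate block, each library left out, and limma 3.58.1 (trend, robust) on log2(TPM + 1) or log2(TPM + 0.1). Isozyme shares were set side by side, with exact permutation tests. The tests of overexpression in A253 and SCC25 and of the mean of both hairpins in CAL27 were also run on simulated data. Those of single hairpins, between hairpins and between lines were not. The members and gene lists were chosen with earlier results of these data known. Every member is named or counted; of each other list, up to 3 called genes per comparison with the largest change could be named, provided their mean log2 CPM reached 2 and their groups did not overlap. No 2 replicate libraries agreed within sampling noise.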

Additional observations from a re-analysis of the deposited data

Results flagged for a closer look

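In 10 members the effect of EHF overexpression in SCC25 differed from that in A253 by edgeR's test of the difference itself, with values as SCC25 minus A253 on the log2 scale. The difference was 1.99 for FBP1 (adjusted p = 0.00231), 0.36 for PDP1 (adjusted p = 0.00946) and 0.33 for SLC2A1 (adjusted p = 0.0262). It was -0.56 for PKM (adjusted p = 5.49e-04), -0.48 for PGK1 (adjusted p = 0.00220) and -0.42 for ALDOA (adjusted p = 0.00570). It was -0.37 for ALDOC (adjusted p = 0.0414) and -0.36 for PFKM (adjusted p = 0.0390). It was -0.36 for ENO1 (adjusted p = 0.0238) and -0.30 for PDHA1 (adjusted p = 0.0418). The calls of ALDOC, PFKM and PDHA1 were lost with DESeq2 and with RLE scaling.

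In 6 members the CAL27 hairpins differed, with values as sh 65 minus sh 64 on the log2 scale and edgeR's adjusted p. The difference was -0.93 for ALDOC (adjusted p = 0.00123), -0.51 for HK2 (adjusted p = 0.0281), -0.42 for PDK1 (adjusted p = 0.0240), -0.39 for PDK3 (adjusted p = 0.0427), -0.37 for SLC16A1 (adjusted p = 0.00462) and -0.33 for PDP1 (adjusted p = 0.0110). The calls of PDK1 and PDK3 were lost with DESeq2. No member had a CAL27 knockdown library that stood apart from the other 3, by Dixon's gap test at the 95% level. That test took the libraries of both hairpins together, so a difference between hairpins can hide such a library.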

How the results depend on the processing

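No called member turned its sign under any alternative that was run. The number of members called, as reported and over the fits that each leave out 1 library, was 4 and 1 to 3 in A253, 19 and 10 to 21 in SCC25, 4 and 2 to 5 in CAL27, 5 and 1 to 6 for sh 64, 4 and 3 to 6 for sh 65, 6 and 3 to 5 for sh 65 minus sh 64, and 10 and 3 to 9 for SCC25 minus A253. DESeq2 called 2 members in CAL27 and 3 with sh 64, limma on unfiltered log2(TPM + 1) called 2 in CAL27, and the cause was not tested. Over all genes, the count moved by over 1.5 times as follows. DESeq2 called 1589 against 3370 in SCC25, 1481 against 2560 in CAL27, 1221 against 2133 with sh 64, 1217 against 1994 with sh 65, 450 against 728 between hairpins and 536 against 871 between lines. Limma on unfiltered log2(TPM + 1) called 561 against 1156 in A253 and 855 against 2560 in CAL27, and the replicate block 1260 against 728 between hairpins. Leaving out control library 1 gave 658 in A253. Without overexpression library 1 or 2, SCC25 gave 2228 or 2124. Without control library 1 or 2, CAL27 gave 937 or 1037, sh 64 gave 866 or 940 and sh 65 gave 879 or 937. Without sh 64 library 1, sh 64 gave 899 and the hairpins 263, and without sh 64 library 2 the hairpins gave 419. Between lines, 556 and 318 were called without SCC25 control library 1 and 2, and 326 and 429 without SCC25 overexpression library 1 and 2.

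Replicate numbers were checked for a pairing of libraries. Deviations of same-numbered libraries correlated at -0.29 to 0.29 in A253, at -0.02 in SCC25 and at -0.01 to 0.20 in CAL27. Those of differently numbered A253 libraries correlated at -0.47 to 0.44, so no steady pairing showed in that line. With 2 libraries a group, deviations in SCC25 and CAL27 mirror each other within a group, so they cannot exclude pairing there. With the replicate block 8 members were called in CAL27, 8 with sh 65 and 10 between hairpins, beside 4, 20, 6 and 13 in A253, SCC25, sh 64 and SCC25 minus A253. Of all genes tested, the block called 24.3% in CAL27, 19.9% with sh 65 and 9.24% between hairpins. It called 7.4%, 24.9%, 21.8% and 6.31% of all genes in A253, SCC25, sh 64 and SCC25 minus A253. With 2 or 3 libraries a group, changes of the size seen in SCC25 can be missed, and FBP1 in A253 and CAL27 and SLC2A3 in each line rest on few counts.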
